A study of Mus musculus with 27 samples.

Results

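Ptbp1 was targeted with siRNA in mouse E14 embryonic stem cells, and the polyadenylated RNA of the nucleoplasm was compared with that of cells given siRNA against GFP. The comparison used 6 libraries of a series of 27: 3 of nucleoplasm after siRNA against Ptbp1 (siPTBP1 NP) and 3 of nucleoplasm after siRNA against GFP (siGFP NP), paired by their replicate number. In the rest of the series the same treatments, and a double knockdown with siRNA against Ptbp1 and Ptbp2, were measured in nucleoplasm, cytoplasm (CY) and chromatin (CH), with 3 libraries per group that the design text calls biological replicates. Genes entered the comparison with at least 1 TPM (transcript level per unit length, scaled to one library total) in at least 3 of the 6 libraries, which 14502 of 53379 gene IDs did. Of the others, 21628 were listed at 0 in all 6 libraries and 17249 were above 0 but did not pass. The rule was met with exactly 3 libraries by 695 genes and missed with exactly 2 by 848. Among the genes that passed, 62 did so through the 3 siPTBP1 libraries alone and 24 through the 3 siGFP libraries alone, and these had to differ between the groups. Of these, 30 were called higher and 4 lower by the test used below, and for those that are named the values are given as a description, with no p.

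E14 is an established embryonic stem cell line, here grown on gelatin with LIF, a cytokine that keeps such cells undifferentiated. Both groups were reverse-transfected with siRNA at 20 uM, as the labels give it, and transfected once more after 24 h, for 48 h in total. The siPTBP1 cultures received siRNA against Ptbp1, and the siGFP cultures siRNA against GFP, a jellyfish protein that the mouse genome does not encode. The labels give no genetic change in either group, and the siRNA sequences were not used here. The labels name the fraction nucleoplasm without saying how it was separated.

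PTBP1 is a polypyrimidine tract binding protein of the hnRNP class. It represses many neuronal and muscle exons, holds some introns unspliced, and can lead transcripts to nonsense-mediated decay or nuclear retention, so that its loss can change the amount of an mRNA as well as its form. In a cell, the nucleoplasm holds transcripts that have left chromatin and have not been exported. The series was made to study introns whose retention depends on PTBP1, and a TPM per gene adds up its spliced and unspliced forms, so intron retention was not analysed here.

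The 6 libraries held 13849 to 14999 genes at 1 TPM or more, and their depth is unknown because TPM keeps none. Mitochondrially encoded genes took 9.31%, 20.2% and 19.3% of the TPM in the siPTBP1 libraries and 9.68%, 15.6% and 13.7% in the siGFP libraries, where 3 values of a group are given in the order of replicates 1, 2 and 3 here and throughout. In the siPTBP1 and siGFP libraries of the other fractions they took 0.0416% to 0.111% in CY and 0.574% to 1.68% in CH. How far the NP libraries hold RNA from outside the nucleoplasm was not tested. The replicate 1 libraries of both groups stood apart on the first principal component of the 6 libraries (49.1% of the variance), at -60.8 for siPTBP1 and -42.9 for siGFP against 20.9 to 33.5 for the other 4. The keratin genes Krt8 and Krt18, markers of trophoblast and other epithelia, were higher in replicate 1 of both groups, with 237 TPM of Krt8 in siPTBP1 and 213 TPM in siGFP, against 27.8 to 42.4 TPM in the other 4 libraries. All 7 embryonic stem cell markers checked were at 1 TPM or more in all 6 libraries, with summed levels of 1633 to 1852 TPM in siPTBP1 and 2148 to 2488 TPM in siGFP. These sums did not overlap, and 1 of the markers, Zfp42, was called by the test used below. The summed levels of 7 fibroblast markers were 40.8 to 77.9 TPM in siPTBP1 and 32.5 to 53.8 TPM in siGFP, those of 7 neuronal markers 87.9 to 131 TPM in siPTBP1 and 94.5 to 135 TPM in siGFP, and those of 7 cardiac or smooth muscle markers 12.6 to 22.1 TPM in siPTBP1 and 16.1 to 22.01 TPM in siGFP. The summed levels of 6 primitive endoderm markers also did not overlap, at 46.8 to 58.5 TPM in siPTBP1 and 39.5 to 44.0 TPM in siGFP, with no marker called. Most of that sum was the laminin gene Lama1, at 42.05, 43.5 and 37.62 TPM in siPTBP1 and 32.75, 30.82 and 29.72 TPM in siGFP. Each other marker of that set overlapped between the groups, and 11.4% of all genes tested did not. The summed levels of 6 trophoblast markers were 57.4 to 392.4 TPM in siPTBP1 and 64.0 to 369 TPM in siGFP. No listed marker was at 0 in all 6 libraries. The part that the mitochondrial share, replicate 1 or these cell types had in the results was not tested. The exceptions are values given without replicate 1 or after rescaling without the mitochondrially encoded genes.

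Ptbp1 itself (ENSMUSG00000006498, chr10:79854427-79864771, plus strand, mm10) had 136, 88.6 and 89.2 TPM in siPTBP1 NP and 484, 287 and 401 TPM in siGFP NP. Every siPTBP1 library was below every siGFP library, and the siPTBP1 mean was 26.7% of the siGFP mean. The log2 difference was -1.89 ± 0.19 (SE; adjusted p = 3.18e-06). Ptbp2, the paralog that replaces PTBP1 in neurons, had 5.66, 16.9 and 17.3 TPM in siPTBP1 and 7.81, 19.4 and 20.3 TPM in siGFP, and did not pass the test (-0.27 ± 0.16, adjusted p = 0.403). Ptbp3, the third family member, did not pass either (-0.38 ± 0.20, adjusted p = 0.348). For both paralogs the groups overlapped, and replicate 1 was the lowest library of each group. Of 10 tested genes of the PTB family and its corepressors, Ptbp1 was the only one called.

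Tests were made with limma on log2(TPM + 1) with the replicate number as a block, and a gene with a Benjamini-Hochberg adjusted p under 0.05 over all 14502 genes is called. Log2 differences are siPTBP1 minus siGFP on that scale, and for low genes they are smaller than the change in TPM. In NP 456 genes were called (3.14% of those tested), of which 286 were higher (1.97%) and 170 lower (1.17%) in siPTBP1. Called genes had a median log2 difference of 0.77 when higher and -0.79 when lower, and the smallest called difference was 0.44 in size. A difference of at least 1 was reached by 59 of the higher genes, and one of -1 or below by 44 of the lower genes. The median of all genes was -0.05. The 3 siPTBP1 libraries lay wholly above or below the 3 siGFP libraries in 11.4% of the genes tested, and the 3 pairs shared a direction in 54.7%. Protein-coding genes gave 264 higher and 155 lower calls among 12526. Without the replicate block 36 genes were called (0.248%; 22 higher and 14 lower), all of them also among the 456. When 1 of the 6 libraries was left out, between 147 (without siGFP replicate 3) and 270 genes (without siPTBP1 replicate 3) were called, and 114 of the 456 kept their call in each of these 6 fits. Without the replicate 1 libraries of all groups 1529 genes were called (642 higher and 887 lower), 388 of the 456 among them, and without replicate 2 or replicate 3 of all groups 51 and 37 were. Scaling the libraries by median ratios moved the median of all genes to 0.04 and the calls to 820 higher and 221 lower, a share of 78.8% higher against 62.7%. Rescaling without the mitochondrially encoded genes gave 496 higher and 173 lower, or 74.1% higher.

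**Figure D1:**
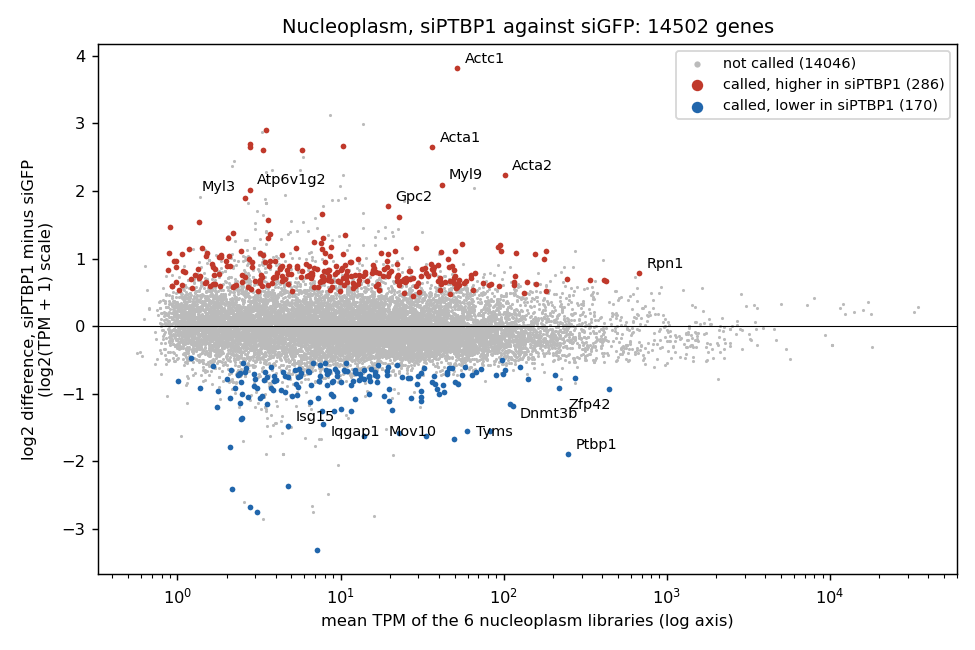
Log2 difference between siPTBP1 and siGFP in nucleoplasm (vertical axis) against the mean TPM of the 6 libraries (horizontal log axis) for the 14502 genes tested. Red points are the 286 genes called higher and blue points the 170 called lower in siPTBP1; Actc1 is the highest and Ptbp1 the lowest of the labelled genes.

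The muscle actins Actc1, Acta1 and Acta2 and the myosin light chain Myl9 rose. Actc1 (ENSMUSG00000068614, chr2:114047282-114053548, minus strand), which encodes cardiac alpha-actin, had 85.5, 70.3 and 136 TPM in siPTBP1 and 4.23, 3.60 and 11.5 TPM in siGFP. Its lowest siPTBP1 library was far above its highest siGFP library, and the log2 difference was 3.82 ± 0.28 (adjusted p = 2.50e-08). Acta1 (ENSMUSG00000031972, chr8:123891769-123894751, minus strand), skeletal alpha-actin, had 120, 20.2 and 50.0 TPM in siPTBP1 and 19.9, 1.96 and 7.56 TPM in siGFP. Its groups only just did not overlap, since replicate 1 was the highest library of both, and its difference was 2.65 ± 0.47 (adjusted p = 0.00376). Acta2 (ENSMUSG00000035783, chr19:34241090-34255590, minus strand), smooth muscle alpha-actin, had 165, 143 and 193 TPM in siPTBP1 and 40.3, 24.9 and 40.6 TPM in siGFP (2.24 ± 0.42, adjusted p = 0.00523). The 3 pairs of Acta2 differed alike, with no overlap. Myl9 (ENSMUSG00000067818, chr2:156775420-156781658, plus strand), a regulatory light chain of smooth muscle and nonmuscle myosin, had 81.7, 46.8 and 73.2 TPM in siPTBP1 and 23.3, 7.85 and 16.7 TPM in siGFP (2.09 ± 0.27, adjusted p = 6.50e-05). Myl3, a ventricular and slow muscle light chain, stayed low, with 5.09, 4.84 and 4.05 TPM in siPTBP1 and 0.60, 0.99 and 0.09 TPM in siGFP (1.90 ± 0.21). It entered the comparison through the siPTBP1 libraries alone. Cnn2, a calponin that binds actin, had 162, 87.2 and 126 TPM in siPTBP1 and 92.6, 32.5 and 49.5 TPM in siGFP (1.18 ± 0.24, adjusted p = 0.00686), where the siPTBP1 replicate 2 value lay below the siGFP replicate 1 value. Of 28 tested actin isoforms and contractile proteins, these 6 were called higher, Myl3 included, and Tpm2 lower, and the median of the list was 0.04, against -0.05 for all genes. Over all genes 1.97% were called higher and 1.17% lower. The summed level of the list was lower in siPTBP1 within each pair. It was 7378, 4222 and 5464 TPM in siPTBP1 and 7753, 4676 and 6475 TPM in siGFP. The called members made up a small part of these sums. Tpm2, a tropomyosin with exons that PTBP1 regulates, had 26.8, 19.4 and 17.0 TPM in siPTBP1 and 46.8, 41.6 and 36.1 TPM in siGFP (-0.96 ± 0.23, adjusted p = 0.0194), with no overlap. Without the replicate block the call of Actc1 (adjusted p = 0.00106) was kept, and those of Acta1 (0.558), Acta2 (0.0813), Myl9 (0.123), Cnn2 (0.651) and Tpm2 (0.209) were lost. Cnn2 was lost without siGFP replicate 3 (0.0508), and Tpm2 without siPTBP1 replicate 2 or 3 (0.152 and 0.106) or siGFP replicate 1 or 3 (0.127 and 0.0577).

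The alpha-actin and myosin light chain genes are textbook targets of SRF, the serum response factor, which binds a DNA element called the CArG box. Srf had 44.7, 26.5 and 30.4 TPM in siPTBP1 and 25.7, 13.6 and 17.7 TPM in siGFP (0.81 ± 0.22, adjusted p = 0.0402), with no overlap between the groups. This call was lost without any 1 of the 6 libraries (adjusted p = 0.0969 to 0.170) and without the block (0.844). Of 20 tested SRF and YAP targets, 5 were called higher (1.97% of all genes were) and none lower, with a median of 0.76 and 13 above 0. They were Acta2, Myl9, Srf, Thbs1 and Lats2, of which Acta2 and Myl9 are also in the contractile list. The summed level of the SRF and YAP list went the other way and was lower in siPTBP1 within each pair. It was 5789, 3079 and 4176 TPM in siPTBP1 and 6350, 3540 and 5224 TPM in siGFP. The 5 called members made up a small part of these sums, which mostly follow the more abundant members that were not called. Thbs1, which encodes the matrix protein thrombospondin-1, had 50.7, 19.2 and 33.7 TPM in siPTBP1 and 18.4, 4.71 and 10.5 TPM in siGFP (1.61 ± 0.33, adjusted p = 0.00756). Replicate 1 of Thbs1 was the highest library in both groups, and without siGFP replicate 3 the adjusted p was 0.0596. Lats2, a kinase of the Hippo pathway that restrains YAP, had a difference of 0.77 ± 0.17 (adjusted p = 0.0120) at 2.23 to 2.72 TPM in siPTBP1 and 0.87 to 1.17 TPM in siGFP. It was lost without siPTBP1 replicate 1 or 2 (0.0587 and 0.0680) or siGFP replicate 3 (0.0969). Without the block Thbs1 (0.526) and Lats2 (0.0859) were not called.

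Promoters of the contractile genes that rose, Myl3 apart, and of Srf are printed to show where they hold exact matches to the CArG box letters. The windows are RefSeq promoters of GRCm38.p6, 300 bases long, 250 before and 50 after the annotated start, read 5′ to 3′ on the gene's strand: Actc1 chr2:114052826-114053125 (minus), Acta1 chr8:123894726-123895025 (minus), Acta2 chr19:34255324-34255623 (minus), Myl9 chr2:156775214-156775513 (plus), Cnn2 chr10:79988350-79988649 (plus) and Srf chr17:46556113-46556412 (minus). Capitals mark each exact match to the CArG box, sought as CCWWWWWWGG, where W is A or T. This pattern, though not each match, is the same on both strands.
Actc1: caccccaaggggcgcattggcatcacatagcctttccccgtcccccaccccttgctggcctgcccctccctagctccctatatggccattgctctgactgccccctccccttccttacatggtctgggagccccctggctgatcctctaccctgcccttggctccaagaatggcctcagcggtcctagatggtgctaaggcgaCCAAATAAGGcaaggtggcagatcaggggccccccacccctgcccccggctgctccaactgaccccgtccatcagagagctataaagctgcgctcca
Acta1: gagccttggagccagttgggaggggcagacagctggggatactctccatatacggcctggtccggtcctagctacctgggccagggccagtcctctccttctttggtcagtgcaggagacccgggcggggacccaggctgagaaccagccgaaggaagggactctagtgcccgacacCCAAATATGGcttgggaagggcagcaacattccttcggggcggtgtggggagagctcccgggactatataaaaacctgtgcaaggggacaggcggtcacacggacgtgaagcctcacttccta
Acta2: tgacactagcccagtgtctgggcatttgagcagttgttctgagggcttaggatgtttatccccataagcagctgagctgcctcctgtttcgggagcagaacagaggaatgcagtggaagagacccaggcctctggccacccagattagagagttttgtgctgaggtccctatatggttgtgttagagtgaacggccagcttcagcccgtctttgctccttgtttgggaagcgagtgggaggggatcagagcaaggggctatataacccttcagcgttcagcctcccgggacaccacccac
Myl9: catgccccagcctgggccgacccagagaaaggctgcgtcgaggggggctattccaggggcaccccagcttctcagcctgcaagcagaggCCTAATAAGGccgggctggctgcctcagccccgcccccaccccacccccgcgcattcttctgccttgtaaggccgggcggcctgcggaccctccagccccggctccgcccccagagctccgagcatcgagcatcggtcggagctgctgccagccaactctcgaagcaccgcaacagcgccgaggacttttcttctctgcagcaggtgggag
Cnn2: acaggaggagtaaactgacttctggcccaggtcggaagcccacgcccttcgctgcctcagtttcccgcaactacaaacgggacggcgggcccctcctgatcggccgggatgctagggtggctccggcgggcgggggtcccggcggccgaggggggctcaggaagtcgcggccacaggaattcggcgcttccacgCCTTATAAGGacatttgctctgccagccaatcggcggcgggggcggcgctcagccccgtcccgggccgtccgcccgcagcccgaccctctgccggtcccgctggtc
Srf: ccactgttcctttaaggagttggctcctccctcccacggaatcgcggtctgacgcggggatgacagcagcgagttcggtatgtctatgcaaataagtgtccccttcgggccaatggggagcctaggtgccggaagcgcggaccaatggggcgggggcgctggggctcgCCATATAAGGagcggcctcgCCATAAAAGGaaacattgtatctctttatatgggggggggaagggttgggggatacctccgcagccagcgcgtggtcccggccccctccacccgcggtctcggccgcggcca
The match began 47 bases before the start in Actc1, 73 in Acta1, 161 in Myl9 and 56 in Cnn2, and Srf held 2 matches, 82 and 62 bases before it. The Acta2 window held no exact match. Near matches were not sought in any window, so this does not show that Acta2 lacks a CArG box. Of the 7 called contractile genes, 5 had a match (Actc1, Acta1, Myl3, Myl9 and Cnn2), of which Myl3 entered the comparison through the siPTBP1 libraries alone. Of all 26 tested list members with a window, 8 had one. Among SRF and YAP targets with a window, 4 of 14 tested members and 2 of 4 called members did. Among all 32851 windows 1.63% held one, and among the 10155 tested genes with a window 1.60% did. The lists and the motif were chosen with values of these data known, so these shares are a description. A match describes letters and is not evidence of binding in these cells.

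**Figure D2:**
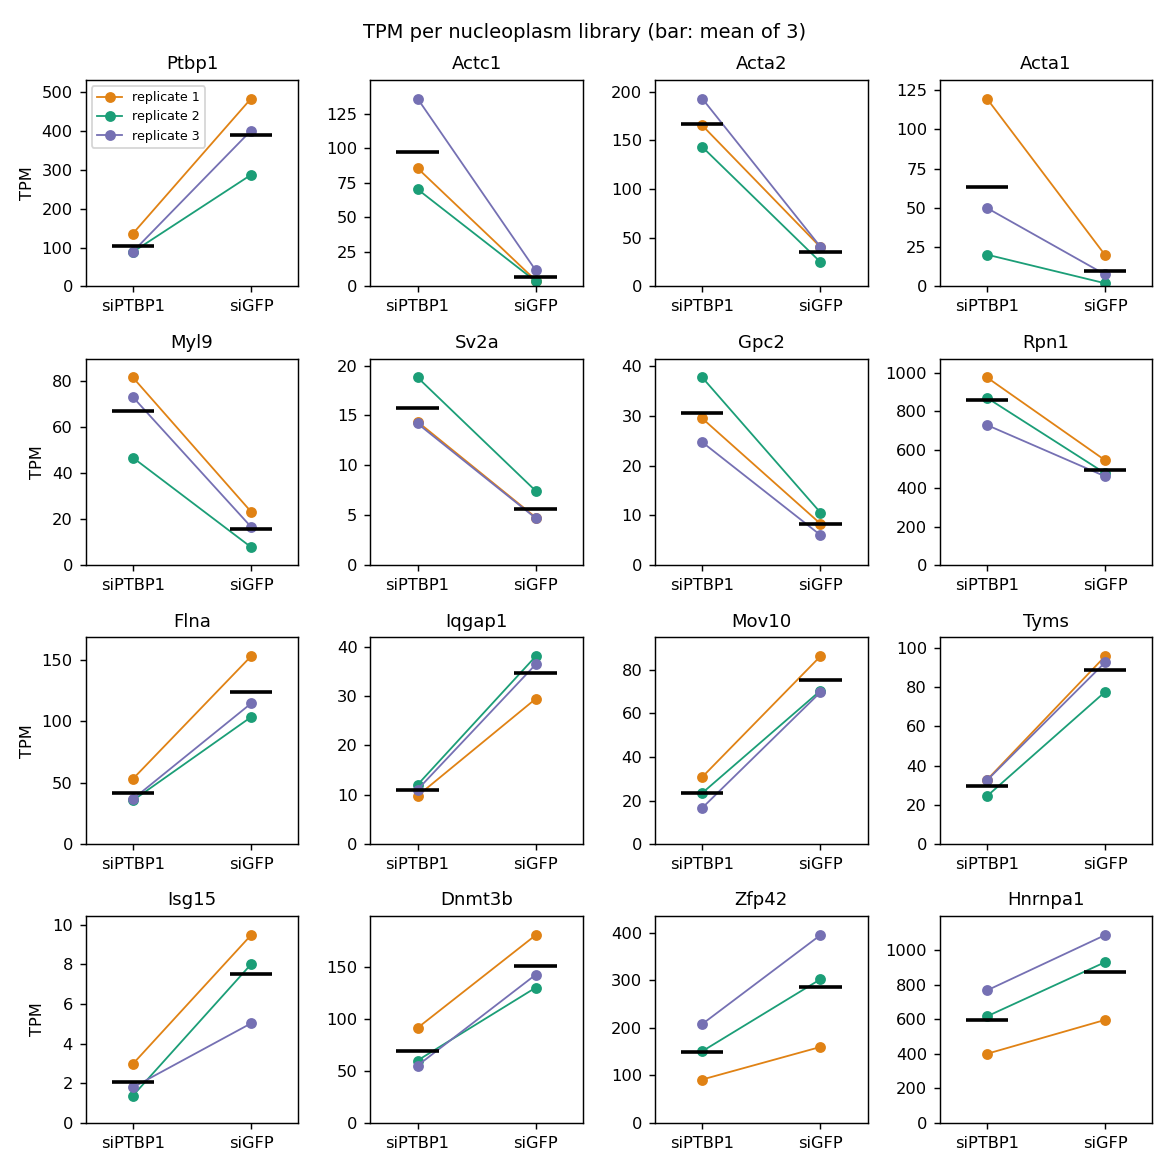
TPM of 16 genes in each nucleoplasm library, siPTBP1 on the left and siGFP on the right of each panel; lines join libraries of the same replicate number and black bars are means of 3. For Actc1 the siPTBP1 libraries lie at 70.3 to 136 TPM and the siGFP libraries at 3.60 to 11.5 TPM, and for Ptbp1 the siPTBP1 libraries lie at 88.6 to 136 TPM and the siGFP libraries at 287 to 484 TPM.

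Several genes that crosslink, bundle or extend actin filaments fell. Of 34 tested members 5 were called lower (1.17% of all genes were) and none higher. The median was -0.11 against -0.05 for all genes, and most of the list did not pass. Flna (ENSMUSG00000031328, chrX:74223461-74249820, minus strand), filamin A, had 52.97, 35.5 and 36.6 TPM in siPTBP1 and 153, 103 and 114 TPM in siGFP (-1.55 ± 0.24, adjusted p = 0.000368). Iqgap1 (ENSMUSG00000030536, chr7:80711583-80825974, minus strand), a scaffold for Rac1 and Cdc42 at the actin cortex, had 9.77, 12.01 and 11.0 TPM in siPTBP1 and 29.5, 38.1 and 36.4 TPM in siGFP (-1.58 ± 0.18, adjusted p = 1.42e-05). Neither gene overlapped between the groups. The formins Fmnl3 (-1.45 ± 0.17, adjusted p = 1.11e-05) and Fhod1 (-1.26 ± 0.19, adjusted p = 0.000222), which nucleate or bundle straight filaments, also fell. Fmnl3 stood at 2.58 to 4.72 TPM in siPTBP1 and 10.6 to 13.4 TPM in siGFP, and Fhod1 at 3.85 to 6.38 TPM in siPTBP1 and 11.8 to 15.9 TPM in siGFP. Outside that list, Cald1, caldesmon, fell to 2.96, 7.48 and 9.76 TPM in siPTBP1, against 17.2, 22 and 24.5 TPM in siGFP (-1.63 ± 0.22, adjusted p = 9.35e-05). Lima1, an actin-bundling LIM protein, fell to 8.16, 17.5 and 9.85 TPM in siPTBP1, against 19.7, 44.7 and 24.6 TPM in siGFP (-1.24 ± 0.17, adjusted p = 9.33e-05). The replicate 2 value of Lima1 was the highest in both groups, and its groups did not overlap. These 6 genes kept their calls when any 1 of the 6 libraries was left out. Without the block Lima1 (adjusted p = 0.533) lost its call.

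Of 22 tested presynaptic vesicle genes, 4 were called higher (1.97% of all genes were) and none lower, with a median of 0.28. The other 18 did not pass. Sv2a (ENSMUSG00000038486, chr3:96181151-96195521, plus strand), a glycoprotein of synaptic vesicles, had 14.4, 18.8 and 14.2 TPM in siPTBP1 and 4.78, 7.44 and 4.71 TPM in siGFP (1.35 ± 0.19, adjusted p = 0.000121). Its relative Sv2c had 4.47, 7.28 and 5.52 TPM in siPTBP1 and 1.06, 2.03 and 1.81 TPM in siGFP (1.36 ± 0.18, adjusted p = 7.66e-05). Replicate 2 was the highest library of both genes in both groups, and neither overlapped. Vamp2, a SNARE protein that drives vesicle fusion, changed less. It had 42.7, 40.1 and 34.7 TPM in siPTBP1 and 22.4, 29.0 and 18.3 TPM in siGFP (0.75 ± 0.18, adjusted p = 0.0191). Vamp2 was lost without siPTBP1 replicate 1 (0.138) or siGFP replicate 3 (0.183). Without the block Vamp2 (0.374) was not called and Sv2a (0.00398) and Sv2c (0.0109) were.

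Receptors and other neuronal proteins gave single calls. Of 20 tested neurotransmitter receptor and postsynaptic genes, Cnih3 was called higher and Dlg3 lower, with a median of 0.25. Over all genes 1.97% were called higher and 1.17% lower. Cnih3, an auxiliary protein of AMPA receptors, had 3.02, 3.08 and 1.46 TPM in siPTBP1 and 0.13, 0.18 and 0.23 TPM in siGFP (1.54 ± 0.19), and entered the comparison through the siPTBP1 libraries alone. Dlg3, a scaffold of the postsynaptic density, had 6.11, 9.31 and 5.52 TPM in siPTBP1 and 9.25, 16.5 and 13.9 TPM in siGFP (-0.83 ± 0.17, adjusted p = 0.00791). The Dlg3 groups touched, with siPTBP1 replicate 2 just above siGFP replicate 1, and the call was lost without siPTBP1 replicate 2 or 3 (0.0534 and 0.0656) or siGFP replicate 3 (0.0769). Outside the lists, Gabre, a GABA-A receptor subunit, had 4.12, 4.38 and 2.35 TPM in siPTBP1 and 0.70, 1.18 and 0.41 TPM in siGFP (1.38 ± 0.17, adjusted p = 2.56e-05). Sez6, a membrane protein of developing neurons, had 3.70, 8 and 6.09 TPM in siPTBP1 and 1.28, 1.61 and 0.91 TPM in siGFP (1.57 ± 0.24, adjusted p = 0.000430). Both were without overlap between the groups. Atp6v1g2 (ENSMUSG00000024403, chr17:35233660-35238767, plus strand), the neuronal form of a subunit of the vacuolar proton pump, had 4.22, 7.03 and 4.01 TPM in siPTBP1 and 0.28, 0.65 and 0.50 TPM in siGFP (2.02 ± 0.17), and also entered through the siPTBP1 libraries alone. It was the single call among 20 tested subunits of that pump, whose median was 0.13. Kif5a, a neuronal kinesin, was the only call among 26 genes of the neuronal cytoskeleton and motors (0.82 ± 0.16, adjusted p = 0.00393), whose median was -0.10. It stood at 5.90 to 10.6 TPM in siPTBP1 and 2.83 to 5.44 TPM in siGFP and was lost without siGFP replicate 3 (0.0515). Without the block Gabre (0.00840) kept its call, and Dlg3 (0.784), Sez6 (0.0609) and Kif5a (0.545) did not. No call was made among 9 neural progenitor genes (median -0.09) or 20 neuronal and muscle splicing regulators (0.01). In a list of 17 genes known as splicing targets of PTBP1, genes called higher included Vamp2, Sv2a and Kif5a, and Flna and Tpm2 were called lower, with a median of 0.05.

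The lists of glypicans and syndecans, of laminins, collagens and integrins, and of the endoplasmic reticulum translocon had medians above 0 in NP, with 4 calls between them. Gpc2 (ENSMUSG00000029510, chr5:138273655-138280005, minus strand), a glypican that carries heparan sulfate on the cell surface, had 29.5, 37.7 and 24.7 TPM in siPTBP1 and 8.33, 10.6 and 6.05 TPM in siGFP (1.77 ± 0.17, adjusted p = 5.50e-07), with no overlap. All 9 tested glypicans and syndecans were above 0, with a median of 0.54, and Gpc2 was the only call. Gpc4 had 36.2, 23.2 and 31.1 TPM in siPTBP1 and 23.1, 12.2 and 16.1 TPM in siGFP and did not pass (0.80 ± 0.23, adjusted p = 0.0584). Slc22a17, a receptor for lipocalin-bound iron, had 12.5, 16.1 and 8.44 TPM in siPTBP1 and 3.16, 3.95 and 2.39 TPM in siGFP (1.65 ± 0.18, adjusted p = 5.71e-06). Cpz, a secreted carboxypeptidase, had 7.25, 4.63 and 4.79 TPM in siPTBP1 and 1.92, 1.24 and 1.74 TPM in siGFP (1.30 ± 0.18, adjusted p = 9.33e-05). Both genes were without overlap and kept their calls without the block (0.00899 and 0.00195), as Gpc2 did (0.00106). Of 31 tested laminins, collagens and integrins none was called, while 29 were above 0 and the median was 0.49. Their summed level was 3133, 3408 and 2734 TPM in siPTBP1 and 2317, 2324 and 1916 TPM in siGFP, with every siPTBP1 library above every siGFP library. Lamb1, a laminin chain of basement membranes, had 128, 141 and 118 TPM in siPTBP1 and 75.5, 79.7 and 64.7 TPM in siGFP (0.81 ± 0.24, adjusted p = 0.0663). The list of laminins, collagens and integrins had medians of 0.04 in CY and -0.09 in CH, against 0.11 and 0.09 for all genes. That of glypicans and syndecans had 0.30 and 0.25, and no member of either was called there. The list medians were not tested against each other.

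Of 35 tested genes of the endoplasmic reticulum translocon and its chaperones, 3 were called higher (1.97% of all genes were) and none lower. Of the list 34 were above 0 and the median was 0.38. The summed level of the list was 11556, 13033 and 11924 TPM in siPTBP1 and 8368, 9302 and 8747 TPM in siGFP, without overlap. Rpn1, a subunit of the oligosaccharyltransferase, had 976, 870 and 728 TPM in siPTBP1 and 545, 478 and 462 TPM in siGFP (0.79 ± 0.20, adjusted p = 0.0294). Hyou1, an Hsp70-like chaperone, had 327, 328 and 254 TPM in siPTBP1 and 196, 198 and 162 TPM in siGFP (0.70 ± 0.17, adjusted p = 0.0265). Sec61a1, the channel of the translocon, had 612, 460 and 448 TPM in siPTBP1 and 366, 287 and 294 TPM in siGFP (0.68 ± 0.17, adjusted p = 0.0313). In each of these 3 genes the siPTBP1 libraries lay above the siGFP libraries. The calls of Rpn1 (0.0589 to 0.130) and Sec61a1 (0.0771 to 0.149) were lost without any 1 of the 6 libraries, and Hyou1 kept its call only without siPTBP1 replicate 3 (0.0510 to 0.167 in the others). None of the 3 was called without the block (0.249, 0.195 and 0.629). The median difference of the list was 0.36, 0.37 and 0.39 in pairs 1, 2 and 3, while that of the 13 mitochondrially encoded mRNAs, none of them called, was -0.04, 0.45 and 0.55. The translocon list had medians of 0.19 in CY, without a call, and 0.24 in CH, with 1 call, higher. The medians of all genes were 0.11 in CY and 0.09 in CH.

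Of 24 tested Wnt receptors and antagonists, the Frizzled receptors Fzd1, Fzd2, Fzd6 and Fzd8 were called higher and none lower. The median was 0.36 and 20 were above 0, and of all genes 1.97% were called higher. Fzd2 had 43.7, 53.1 and 31.7 TPM in siPTBP1 and 25.1, 27.1 and 17.1 TPM in siGFP (0.86 ± 0.21, adjusted p = 0.0270), with no overlap. The other 3 stood at lower levels: Fzd6 at 6.25 to 10.9 TPM in siPTBP1 and 3.77 to 5.22 TPM in siGFP (0.75 ± 0.18), Fzd8 at 3.38 to 5.93 TPM in siPTBP1 and 1.96 to 3.48 TPM in siGFP with overlap (0.71 ± 0.18), and Fzd1 at 1.53 to 2.45 TPM in siPTBP1 and 0.76 to 1.30 TPM in siGFP (0.59 ± 0.15). Their adjusted p were 0.0241, 0.0341 and 0.0341. All 4 calls were lost without siPTBP1 replicate 2 or siGFP replicate 3, with adjusted p of 0.133 to 0.221. Fzd6 and Fzd8 were also lost without siGFP replicate 2 (0.115 and 0.103), Fzd1 without siGFP replicate 2 (0.0771), and Fzd1, Fzd2 and Fzd8 without siGFP replicate 1 (0.0851, 0.110 and 0.0848). Fzd2 and Fzd6 were lost without siPTBP1 replicate 3 (0.0636 and 0.0868), and Fzd1 and Fzd8 without siPTBP1 replicate 1 (0.103 and 0.0941). None was called without the block (0.254 to 0.545), and Fzd1 was not called without replicate 1 of all groups (0.0639). Among 10 fibroblast genes Loxl1, a crosslinker of elastin, was the only call (0.72 ± 0.18, adjusted p = 0.0280), kept only without siPTBP1 replicate 3 (0.0585 to 0.188 in the others) and lost without the block (0.577).

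**Figure D3:**
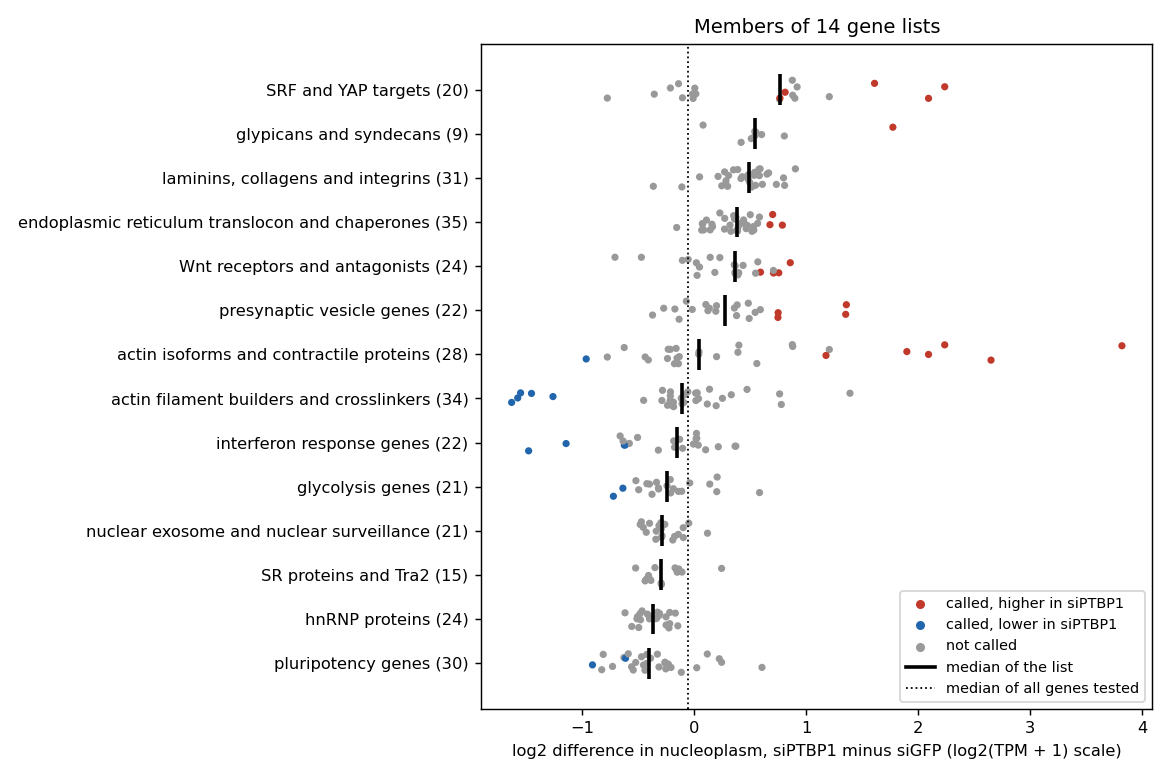
Log2 differences in nucleoplasm of the tested members of 14 gene lists, 1 point per gene, with the number tested in brackets. Black bars are list medians, from 0.76 for SRF and YAP targets to -0.41 for pluripotency genes, and the dotted line is the median of all genes at -0.05; red and blue points are called higher and lower in siPTBP1.

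The hnRNP genes lay below 0 in nucleoplasm without a call. Of 24 tested hnRNP genes, the class of nuclear RNA-binding proteins to which PTBP1 belongs, all 24 were below 0 and the median was -0.37, but none was called. Of all genes tested 56.7% were below 0 in NP, with a median of -0.05. The summed level was 5332, 5518 and 7135 TPM in siPTBP1 and 6754, 7405 and 9143 TPM in siGFP, lower in siPTBP1 within each of the 3 pairs, while siPTBP1 replicate 3 exceeded siGFP replicate 1. Hnrnpul2, an RNA- and DNA-binding member, had the smallest p of these, with 36.9, 33.1 and 42.3 TPM in siPTBP1 and 60.1, 51.2 and 62.4 TPM in siGFP (-0.62 ± 0.19, adjusted p = 0.0773). Hnrnpa1, a regulator of splice site choice, had 401, 618 and 768 TPM in siPTBP1 and 597, 932 and 1089 TPM in siGFP (-0.56 ± 0.20, adjusted p = 0.129), with overlap. With a spread estimated from the NP libraries alone, 17 of the 24 were called lower, in a fit that called 11.7% of all genes lower. The median of the hnRNP list was -0.36, -0.39 and -0.36 in pairs 1, 2 and 3, and -0.26 under median-ratio scaling. The same list had medians of 0.10 in CY and 0.12 in CH, and no member was called there. These lay near the medians of all genes, 0.11 in CY and 0.09 in CH. Beside them, 15 SR proteins and Tra2 genes had a median of -0.30 in NP (14 below 0), 21 genes of the nuclear exosome and RNA surveillance -0.29 (20 below 0), 19 genes known for introns detained in the nucleus -0.20 and 17 nonsense-mediated decay factors -0.23. Among these only Upf2, a core decay factor, was called (-0.66 ± 0.16, adjusted p = 0.0223). It stood at 2.71, 8.17 and 8.49 TPM in siPTBP1 and 5.26, 13.99 and 12.7 TPM in siGFP, overlapping between groups, and was lost without any 1 library (0.0503 to 0.0966) and without the block (1.00). The 76 cytosolic ribosomal protein genes had a median of -0.19 and no call. In CY and CH the medians were 0.11 and 0.12 for the SR list and 0.05 and 0.12 for the exosome list. They were 0.12 and 0.16 for the detained-intron list and 0.11 and -0.01 for the decay factors.

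Genes of the pluripotent state lay mostly below 0. Of 30 tested pluripotency genes 25 were below 0 and the median was -0.41, and 2 were called, both lower. Of all genes tested 56.7% were below 0, and 1.97% were called higher and 1.17% lower. Zfp42 (ENSMUSG00000051176, chr8:43295063-43306980, minus strand), the stem cell marker Rex1, had 91.3, 151 and 208 TPM in siPTBP1 and 160, 302 and 395 TPM in siGFP (-0.91 ± 0.19, adjusted p = 0.00689). It was lower in siPTBP1 within each pair, with overlap across pairs, because replicate 1 was lowest and replicate 3 highest in both groups. Fgf4, the growth factor that drives exit from the naive state, had 51.0, 30.9 and 33.9 TPM in siPTBP1 and 65.9, 56.3 and 53.1 TPM in siGFP (-0.61 ± 0.17, adjusted p = 0.0486), without overlap. Nanog had 54.3, 49.7 and 62.7 TPM in siPTBP1 and 101, 86.7 and 107 TPM in siGFP, and was not called (-0.81, adjusted p = 0.0711). Pou5f1 had 1124, 552 and 735 TPM in siPTBP1 and 1178, 683 and 973 TPM in siGFP (-0.26, adjusted p = 0.539). The de novo DNA methylation genes Dnmt3b and Dnmt3l, counted among 18 formative and primed epiblast genes, were also lower. Dnmt3b (ENSMUSG00000027478, chr2:153649450-153687730, plus strand) had 91.1, 59.9 and 55.0 TPM in siPTBP1 and 180, 130 and 142 TPM in siGFP (-1.15 ± 0.18, adjusted p = 0.000432). Dnmt3l, its catalytically inactive cofactor, had 175, 50.9 and 93.2 TPM in siPTBP1 and 228, 94.0 and 199 TPM in siGFP (-0.78 ± 0.19, adjusted p = 0.0266). Dnmt3b did not overlap between the groups and Dnmt3l did. In the same list Cdh2, N-cadherin, was called higher, with 16.9, 36.7 and 36.5 TPM in siPTBP1 and 9.40, 14.8 and 14.2 TPM in siGFP (1.11 ± 0.21, adjusted p = 0.00324). The formative list had a median of -0.07. Zfp42 was lost without siPTBP1 replicate 2 (0.0528), Fgf4 without any 1 library (0.0542 to 0.218), and Dnmt3l kept its call only without siGFP replicate 1 (0.0518 to 0.183 in the others). Under median-ratio scaling Fgf4 was not called (0.0609). None of the 5 was called without the block (0.126 to 1.00). In bulk libraries fewer cells of a type and less RNA per cell cannot be told apart.

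Interferon-stimulated genes gave 4 lower calls and no higher one among 22 tested, with a median of -0.15. Of all genes 1.17% were called lower. Isg15 (ENSMUSG00000035692, chr4:156199424-156200818, minus strand), a ubiquitin-like modifier, had 2.97, 1.37 and 1.79 TPM in siPTBP1 and 9.47, 8 and 5.02 TPM in siGFP (-1.48 ± 0.23, adjusted p = 0.000487). Oasl2, a relative of the 2′-5′ oligoadenylate synthetases, had 0.95, 1.59 and 0.76 TPM in siPTBP1 and 3.60, 5.47 and 2.22 TPM in siGFP (-1.14 ± 0.20, adjusted p = 0.00160). Neither gene overlapped between the groups. Oas1a, a synthetase that senses double-stranded RNA (-0.62 ± 0.16, adjusted p = 0.0341), and Irf1, a transcription factor of the interferon response (-0.61 ± 0.16, adjusted p = 0.0296), changed less. Oas1a stood at 1.06 to 3.30 TPM in siPTBP1 and 2.22 to 5.18 TPM in siGFP, with overlap, and Irf1 at 20.2 to 30.9 TPM in siPTBP1 and 35.5 to 46.1 TPM in siGFP, without. Oas1a was lost without any 1 library (0.0737 to 0.164), without replicate 1 of all groups (0.0564) and under median-ratio scaling (0.0662), and Irf1 kept its call only without siPTBP1 replicate 1 (0.0642 to 0.161 in the others). Outside the list Gbp2, a guanylate-binding protein induced by interferon gamma, had 4.14, 5.75 and 7.13 TPM in siPTBP1 and 12.5, 15.4 and 15.3 TPM in siGFP (-1.23 ± 0.26, adjusted p = 0.00881), and its adjusted p without siPTBP1 replicate 1 was 0.0521. Without the block none of the 5 was called (0.0946 to 1.00). The Isg15 and Gbp2 windows are shown because these 2 had the lowest differences of the interferon genes named and their promoters hold an interferon-type element. They are RefSeq promoters of GRCm38.p6 at chr4:156200769-156201068 (minus) and chr3:142620413-142620712 (plus), with the element TTTCNNTTTC, sought on both strands, in capitals.
Isg15: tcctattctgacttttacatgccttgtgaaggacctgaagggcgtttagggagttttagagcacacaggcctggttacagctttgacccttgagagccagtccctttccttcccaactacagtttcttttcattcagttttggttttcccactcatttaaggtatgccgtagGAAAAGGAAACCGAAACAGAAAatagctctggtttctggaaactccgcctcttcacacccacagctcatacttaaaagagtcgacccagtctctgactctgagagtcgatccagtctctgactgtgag
Gbp2: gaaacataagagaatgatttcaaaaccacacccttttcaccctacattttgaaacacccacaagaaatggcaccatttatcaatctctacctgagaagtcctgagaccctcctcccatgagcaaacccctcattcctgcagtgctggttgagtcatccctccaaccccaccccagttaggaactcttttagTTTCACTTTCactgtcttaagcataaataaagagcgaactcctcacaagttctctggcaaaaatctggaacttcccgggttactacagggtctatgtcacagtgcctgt
The Isg15 window held 3 overlapping matches that began 78, 72 and 66 bases before the start, and the Gbp2 window 1 match, 59 bases before it. Of the 4 called list members Isg15 and Oas1a had a match, as did 8 of the 20 tested members with a window, against 3.38% of the 10155 tested genes with a window and 3.44% of all 32851 windows. The list and the element were chosen with values of these data known, and the matches describe letters only.

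Mov10 and Tyms were among the genes that fell most. Mov10 (ENSMUSG00000002227, chr3:104794836-104818563, minus strand), an RNA helicase associated with Argonaute proteins, had 30.8, 23.4 and 16.6 TPM in siPTBP1 and 86.3, 70.5 and 69.8 TPM in siGFP (-1.67 ± 0.19, adjusted p = 1.11e-05). Tyms (ENSMUSG00000025747, chr5:30058202-30073617, minus strand), thymidylate synthase, had 32.6, 24.4 and 32.4 TPM in siPTBP1 and 95.7, 77.5 and 92.5 TPM in siGFP (-1.55 ± 0.22, adjusted p = 0.000170). Neither overlapped, and both kept their calls without the block (0.0109 and 0.00418). Each was the only call in its list, of 13 Argonaute and silencing proteins (median -0.08) and of 16 deoxynucleotide synthesis enzymes (-0.24). Pgm2, a phosphoglucomutase, was at 3.31 to 5.42 TPM in siPTBP1 and 9.40 to 14.1 TPM in siGFP (-1.25 ± 0.21, adjusted p = 0.00131). Atp10a, a phospholipid flippase, was at 4.79 to 8.32 TPM in siPTBP1 and 13.6 to 19.7 TPM in siGFP (-1.25 ± 0.17, adjusted p = 0.000121). Reck, a membrane-anchored inhibitor of matrix metalloproteinases, was at 0.57 to 1.5 TPM in siPTBP1 and 2.68 to 6.55 TPM in siGFP (-1.36 ± 0.27, adjusted p = 0.00506). These 3 genes showed no overlap, and without the block their adjusted p were 0.293, 0.0502 and 0.402. Of 21 glycolysis genes, the phosphofructokinases Pfkl (-0.72 ± 0.17, adjusted p = 0.0149) and Pfkp (-0.64 ± 0.15, adjusted p = 0.0217) were called lower, with a list median of -0.24. Over all genes 1.17% were called lower. Pfkl stood at 47.8 to 99.1 TPM in siPTBP1 and 93.3 to 133 TPM in siGFP, and Pfkp at 40.6 to 76.6 TPM in siPTBP1 and 69.6 to 110.1 TPM in siGFP, each with overlap. Pfkl was lost without siPTBP1 replicate 2 or 3 or siGFP replicate 1 or 3 (0.0509 to 0.108), and Pfkp kept its call only without siPTBP1 replicate 1 (0.0552 to 0.126 in the others). Lss, lanosterol synthase, was the only call among 23 cholesterol synthesis genes (-1.04 ± 0.15, adjusted p = 0.000121; list median 0.15). It had 20.5, 23.2 and 16.6 TPM in siPTBP1 and 47.7, 44.4 and 35.3 TPM in siGFP. Top2a, a topoisomerase of dividing cells, was the only call among 32 cell cycle and replication genes (-0.73 ± 0.19, adjusted p = 0.0384; list median -0.16), lost without any 1 library (0.0736 to 0.206). Without the block Pfkl (0.629), Pfkp (0.860), Lss (0.0933) and Top2a (1.00) were not called, and Top2a was lost under quantile normalization (0.0512).

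No gene was called in the lists of nuclear noncoding RNAs (18 tested, median -0.16), primitive endoderm (9, 0.30), primitive streak and mesoderm (12, -0.11), trophoblast (10, -0.16), p53 targets (20, -0.08), ATF4 stress response (21, -0.09) and two-cell-stage-like genes (3, -0.33). Among 10 regulators and myosins of cardiac and smooth muscle (median 0.23), only Srf was called. Under median-ratio scaling the medians of the formative, neuronal cytoskeleton, neural progenitor, p53, ATF4 and Argonaute lists turned positive, at 0.0382 or less. A few symbol families were looked at after their values were seen. The gamma protocadherins, cell adhesion proteins of neurons, had 8 of 16 tested members called higher and a median of 0.59, but their transcripts share constant exons, so their reads cannot be assigned to a member with certainty. Of 236 solute carriers 17 were higher and 1 lower (7.20% and 0.424%), of 174 genes whose symbol begins with Tmem 10 were higher and 1 lower (5.75% and 0.575%), and of 14 Mfsd transporters 4 were higher. Of 4 guanylate-binding proteins 3 were lower. Beside these family counts, 1.97% of all 14502 genes tested were called higher and 1.17% lower.

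Short transcripts are uncertain, since TPM of transcripts under 200 nt depends strongly on fragment length. Of 511 such genes 4 were called higher and 5 lower (1.76%, against 3.14% of all genes tested). Snord98, a C/D box small nucleolar RNA, was listed at 0 in every siPTBP1 library, whereas the siGFP libraries held 4.89, 4.15 and 7.64 TPM. The predicted gene Gm24962 was also listed at 0 in siPTBP1, against 4.53, 4.83 and 3.58 TPM in siGFP. The predicted gene Gm22297 was at 4.08, 8.34 and 4.26 TPM in siPTBP1 and listed at 0 in all 3 siGFP libraries. Each of the 3 entered the comparison through 1 group alone, so no fold or p is given.

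The next comparison asked whether the changes in nucleoplasm were shared by the other fractions, fitted over the same 14502 genes. In CY 430 genes were called (2.97%) and in CH 308 (2.12%). Of the 286 genes higher in NP, 80 were also called higher in CY (28.0% of the NP list and 25.4% of the 315 CY genes) and 61 in CH (21.3% of the NP list and 25.7% of the 237 CH genes). Of the 170 lower in NP, 71 were called lower in CY (41.8% of the NP list and 61.7% of the 115 CY genes) and 35 in CH (20.6% of the NP list and 49.3% of the 71 CH genes). Genes called higher in NP had medians of 0.77 in NP, 0.43 in CY and 0.36 in CH, and those called lower -0.79, -0.57 and -0.30. The genes were chosen in NP, so the smaller medians elsewhere show no difference. The median of all genes was -0.05 in NP, 0.11 in CY and 0.09 in CH. Ptbp1 differed by -1.89 in NP, -2.15 in CY and -1.05 in CH, and the NP difference could not be told from either (adjusted p = 0.800 and 0.433). Actc1 differed by 3.82, 4.68 and 3.11 in NP, CY and CH, and Acta2 by 2.24, 3.86 and 0.83.

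A test of the difference itself called 3 genes (0.0207%) between NP and CY, all with a lower value in NP. Among them were the short transcripts Snord98 and Gm24962, which were listed at 0 in all siPTBP1 and siGFP libraries of CY, so that their difference only restates the NP values. Between NP and CH 26 genes were called (0.179%), 6 with a higher and 20 with a lower value in NP, and 3 were called without the block. Slc22a17 differed by 1.65 in NP and 0.19 in CH (difference 1.46, adjusted p = 0.0133), Gpc2 by 1.77 and 0.49 (1.29, adjusted p = 0.0149), and Gabre by 1.38 and 0.12 (1.26, adjusted p = 0.0190). Gabbr1, a GABA-B receptor subunit with exons regulated by PTBP1, differed by 0.71 in NP, where it was not called (adjusted p = 0.0517), and by -0.70 in CH (1.41, adjusted p = 0.0290). In the other direction Tpm2 differed by -0.96 in NP and 0.90 in CH (-1.86, adjusted p = 0.0133), and it was called in both with opposite signs. Galm, a galactose mutarotase, differed by -0.59 in NP and 1.13 in CH (-1.72, adjusted p = 0.00391), and Stx3, a syntaxin, by -0.48 and 0.88 (-1.36, adjusted p = 0.0290). Ska1, a kinetochore protein, differed by -0.07 in NP, a sign that turned under median-ratio scaling, and by 1.38 in CH (-1.45, adjusted p = 0.0103). The last 3 were called higher in CH and were not called in NP. Cald1 (-1.63 in NP and -0.07 in CH, adjusted p = 0.0290), Fmnl3 (-1.45 and -0.13, 0.0133) and Atp10a (-1.25 and -0.05, 0.0359) fell in NP and were not called in CH.

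**Figure D4:**
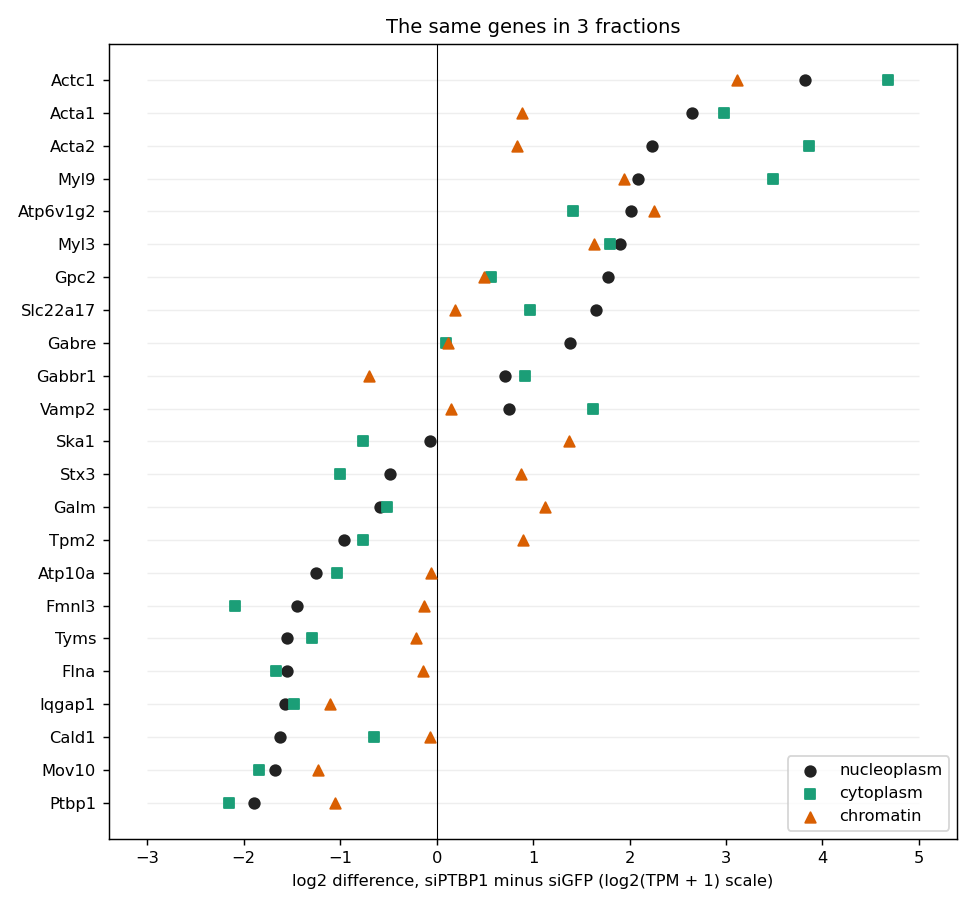
Log2 differences between siPTBP1 and siGFP for 23 genes in nucleoplasm (black circles), cytoplasm (green squares) and chromatin (orange triangles). Gpc2, Slc22a17 and Gabre lie further right in nucleoplasm than in chromatin, and Tpm2 lies at -0.96 in nucleoplasm and at 0.90 in chromatin.

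The double knockdown in nucleoplasm was set against the same siGFP libraries, so its values are given beside those above without a further comparison. Actc1 averaged 95.6 ± 44.7 TPM in the double knockdown, 97.2 ± 34.3 TPM in siPTBP1 and 6.45 ± 4.41 TPM in siGFP (SD, n = 3 each). Acta2 averaged 166 ± 46.9 TPM in the double knockdown, 167 ± 24.9 TPM in siPTBP1 and 35.3 ± 8.96 TPM in siGFP. Gpc2 averaged 28.6 ± 3.30 TPM in the double knockdown, 30.7 ± 6.58 TPM in siPTBP1 and 8.32 ± 2.26 TPM in siGFP. Flna averaged 41.6 ± 13.6 TPM in the double knockdown, 41.7 ± 9.80 TPM in siPTBP1 and 124 ± 26.0 TPM in siGFP. Mov10 averaged 24.6 ± 9.17 TPM in the double knockdown, 23.6 ± 7.10 TPM in siPTBP1 and 75.5 ± 9.34 TPM in siGFP. Snord98 and Gm24962 were listed at 0 in the double knockdown as in siPTBP1. Gm22297 was listed at 0 in the double knockdown as in siGFP, although its siPTBP1 libraries stood at 4.08 to 8.34 TPM.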

How the data were processed

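Per the labels' protocols, total RNA of each fraction was extracted and polyA+ RNA was made into stranded libraries. The submitters' processing notes name STAR, kallisto and mm10 without versions, with no role for either tool. The values used are the deposited gene TPM, which the authors made; depth is unknown, so no counting interval is given. Symbols and coordinates come from GENCODE M21 (53274 of 53379 IDs found) while the release that the table was made with is not stated in the labels.

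Genes that reached 1 TPM in 3 or more of the 6 NP libraries were tested, on log2(TPM + 1), by limma (version 3.58.1; R version 4.3.3; two-sided, eBayes with trend and robust) over all 27 libraries, with 9 group means and replicate number as a block (16 residual degrees of freedom), and adjusted by Benjamini-Hochberg over 14502 genes. Differences of effects were contrasts of the same fit. That fit took the replicate effect as equal in every fraction and had no term for fractions of the same culture. Its p-values rest on this. The script was tested on simulated data.

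The labels do not say what a replicate number stands for. Deviations from the group means correlated at 0.253 or more in all 108 library pairs of the same number (median 0.519), so the numbers were taken as pairing. Pairs of different number and group had a median of -0.334. Deviations sum to 0 within a group, so that negative value largely follows from the positive one and adds no support. The pairing comes from the data, and the p-values reflect how far these libraries vary. Between the closest 2 of the 6 libraries the SD of the log2 differences was 0.494, so none was counted as a copy.

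Named genes are the largest called differences in each direction with no overlap, a mean of at least 1 TPM, transcripts of at least 200 nt and no predicted or clone name; Ptbp1 to Ptbp3; up to 4 members of each list with the smallest adjusted p; the largest differences between fractions; and 3 short transcripts. Some genes that the rule takes are not reported here. Nanog, Pou5f1, Krt8 and Krt18 are named as markers. Members and lists were chosen with earlier results of these data known, and the symbol families and the promoter motifs after values were seen. Promoters are RefSeq windows. Alternatives tried were other blocks, library sets, pseudocounts, filters and scalings, and leaving libraries out.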

Additional observations from a re-analysis of the deposited data

Results flagged for a closer look

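The siPTBP1 effect differed between nucleoplasm and chromatin in these genes by the test of the difference itself, with limma's adjusted p under 0.05. Values are log2 differences in nucleoplasm minus those in chromatin.

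Against chromatin, the higher values in nucleoplasm were 1.46 for Slc22a17 (adjusted p = 0.0133), 1.41 for Gabbr1 (0.0290), 1.29 for Gpc2 (0.0149) and 1.26 for Gabre (0.0190). The lower values were -1.86 for Tpm2 (0.0133), -1.72 for Galm (0.00391), -1.56 for Cald1 (0.0290), -1.45 for Ska1 (0.0103), -1.36 for Stx3 (0.0290), -1.33 for Fmnl3 (0.0133) and -1.20 for Atp10a (0.0359). Of the 26 genes called here 3 were called without the replicate block.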

How the results depend on the processing

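The 456 genes called in NP became 36 with no replicate block, 1609 with a fraction-specific block, 3069 with the 9 NP libraries alone and 2961 with the 6 compared libraries alone (2 residual degrees of freedom); 451 of the 456 were among the 3069. The count was 295 with no filter, 298 with at least 5 TPM, 1041 with median-ratio scaling, 946 with quantile normalization, 669 without the mitochondrially encoded genes and 368 with a pseudocount of 0.1. Leaving out 1 library or 1 replicate number gave 37 to 1529. The cause of these shifts was not tested. The 3 genes whose effect differed between NP and CY became 1 with no replicate block, 11 with the fraction-specific block, 14 with the compared libraries, 1 with no filter and 0 with the stricter filter (limma), at an unadjusted p under 0.05 in 473 genes; the count was 5 with each of a pseudocount of 0.1, median-ratio scaling and removal of mitochondrial genes, and 1 to 10 when libraries were left out. The 26 between NP and CH became 3 with no replicate block, 147 with the fraction-specific block, 16 with a pseudocount of 0.1, 64 with no filter, 15 with the stricter filter and 41 with quantile normalization, and 2 to 61 when libraries were left out. Of 67 genes in the text, short transcripts left out, 39 lost their call with no replicate block, 33 without replicate 2, 37 without replicate 3 and 2 without replicate 1. The only sign that turned was that of Ska1, which was not called: 0.022 with median-ratio scaling and -0.152 to 0.0476 when libraries were left out. Of 38 list medians, 20 moved by more than their spread over pairs under median-ratio scaling. The unknown depth limits most the genes near 1 TPM and those listed at 0.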
